A study of Homo sapiens with 12 samples.

Results

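The clustered protocadherins are 53 protein-coding genes in tandem on human chromosome 5, chosen here as all GENCODE release 44 genes there whose symbols begin with PCDHA, PCDHB or PCDHG, out of 20033 protein-coding genes annotated. They fall into 3 subclusters on hg38: 15 alpha genes (chr5:140786136-141012347), 16 beta genes (chr5:141051374-141249365) and 22 gamma genes (chr5:141330514-141512977). With 2 kb upstream of the first gene, the locus spans 729 kb (chr5:140784136-141512977). It held the midpoints of 21 of the 153965 differentially methylated regions (DMRs) in the study's lists. The study followed DNA methylation while primordial germ cell-like cells (PGCLCs) were derived from WIS2, an established human embryonic stem (ES) cell line. d8 DZ+PGCLC were DAZL-reporter-positive cells of day 8, derived after SOX17 and DMRT1 transgenes had been induced and cultured with BMP2, SCF and EGF, then with retinoic acid, Activin A, SCF and EGF. N3+PGCLC were sorted by a NANOS3 reporter after culture with BMP2, SCF and EGF. 4i ES cells, the starting population of ES cells in a medium of kinase inhibitors, were the common comparator of both. Both PGCLC comparisons used the same 4i ES cell libraries. The day of collection, the medium, the transgenes, the sort and the line that carried the reporter all differed between d8 DZ+PGCLC and N3+PGCLC, and their parts in any difference between these stages cannot be told apart.

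For each stage, 2 replicates were read by CAPS for 5-hydroxymethylcytosine (5hmC) and 2 by TAPSβ for 5-methylcytosine (5mC), giving 12 libraries. The 4 deposited tables list the regions called from both replicates together, each as a position and a direction. A hyper DMR had a higher level in the PGCLC than in 4i ES cells, and a hypo DMR had a lower level. Methylation levels, differences, p-values, depths and the libraries' own values are not part of these tables. Therefore the spread between replicates is unknown, no test between groups could be made, and a stretch without a DMR may have differed by less than the calling threshold or been covered too thinly. For the same reason the labelled cell types could not be checked against marker genes. In bulk DNA, a partial change in all cells and a full change in some of them cannot be told apart.

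Clustered protocadherins are cell-surface adhesion proteins known best from neurons, where each cell uses a small set of them and cells with matching sets recognise each other. Every alpha and gamma gene has its own promoter and its own long variable first exon, which encodes the extracellular and transmembrane parts and is spliced to constant last exons that all genes of the subcluster share, whereas each beta gene is a single exon. In mice, the choice of promoter is set in part by DNA methylation, placed by DNMT3B, and by CTCF and cohesin, which join an unmethylated promoter to distant enhancers. The C-type genes at the ends of the alpha and gamma subclusters are known there to be expressed constitutively in some neurons rather than by random choice.

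Because promoter choice in this family is set in part by DNA methylation in mice, the sequences that carried a 5mC call across a start are given first. These are the RefSeq promoters (GRCh38.p14, plus strand, 250 bases before to 50 after the transcription start) of 4 of the 5 genes with such a call, with CpGs in capitals; that of PCDHA13 is not printed here. The promoter of PCDHA7, at chr5:140834019-140834318, lay wholly inside a hyper-5mC DMR of d8 DZ+PGCLC. The promoters of PCDHA2 (chr5:140794602-140794901) and PCDHB13 (chr5:141213669-141213968) lay wholly inside hypo-5mC DMRs. That of PCDHGA3 (chr5:141343579-141343878) had 221 of its 300 bases, with all 4 of its CpGs, inside a hypo-5mC DMR.
PCDHA7: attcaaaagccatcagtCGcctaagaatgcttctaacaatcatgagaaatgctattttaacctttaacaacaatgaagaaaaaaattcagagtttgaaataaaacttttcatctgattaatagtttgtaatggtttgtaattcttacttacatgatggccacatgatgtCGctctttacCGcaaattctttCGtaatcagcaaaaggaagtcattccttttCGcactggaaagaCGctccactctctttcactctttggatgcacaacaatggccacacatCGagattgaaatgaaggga
PCDHA2: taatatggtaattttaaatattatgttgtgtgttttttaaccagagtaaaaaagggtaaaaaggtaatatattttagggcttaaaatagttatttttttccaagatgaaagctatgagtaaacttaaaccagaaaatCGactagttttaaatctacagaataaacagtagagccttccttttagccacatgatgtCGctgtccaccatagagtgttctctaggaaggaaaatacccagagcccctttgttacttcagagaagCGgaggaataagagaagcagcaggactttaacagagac
PCDHB13: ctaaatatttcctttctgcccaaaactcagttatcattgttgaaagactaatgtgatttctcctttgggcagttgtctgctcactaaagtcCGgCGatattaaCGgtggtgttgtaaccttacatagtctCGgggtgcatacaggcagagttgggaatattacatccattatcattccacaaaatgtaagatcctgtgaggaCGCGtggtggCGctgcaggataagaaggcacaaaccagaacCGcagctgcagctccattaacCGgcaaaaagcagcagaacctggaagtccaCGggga
PCDHGA3: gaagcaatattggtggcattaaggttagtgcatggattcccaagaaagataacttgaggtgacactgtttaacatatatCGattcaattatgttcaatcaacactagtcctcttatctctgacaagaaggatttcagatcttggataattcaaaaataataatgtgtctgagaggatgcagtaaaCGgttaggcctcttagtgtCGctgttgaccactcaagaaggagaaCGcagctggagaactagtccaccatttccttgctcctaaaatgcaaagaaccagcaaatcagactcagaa

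These promoters held 7 CpGs in PCDHA7, 3 in PCDHA2, 10 in PCDHB13 and 4 in PCDHGA3. The letters CGCT, the core of the conserved element of protocadherin promoters, were searched for on both strands. They occurred in PCDHA7 at bases -81 and -16, in PCDHA2 at -55 and 10, in PCDHB13 at -38 and in PCDHGA3 at -46, where 0 is the start. Of the 53 genes, 47 had a promoter in the RefSeq table, and 46 of these (97.9%) held CGCT, against 70% of all 35116 promoters. A longer string, TGTCGCT, was chosen after the sequences had been seen. It stood in PCDHA7, PCDHA2 and PCDHGA3 and in 14 of the 47 promoters (29.8%), namely in 10 of 13 alpha, 1 of 14 beta and 3 of 20 gamma promoters, against 1.76% of all promoters. Every TGTCGCT is also a match to CGCT. A match is only these letters in this window and does not show that a factor was bound.

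The locus was rich in CpGs and poor in the DMRs that were most frequent in d8 DZ+PGCLC elsewhere. It had 12962 CpGs, or 17.8 per kb, against 9.52 per kb in the rest of the genome. Of the CpGs, 38.8% lay in 500-base tiles with the composition of a CpG island (G and C at 55% or more, CpGs at 0.65 or more of the number that base content predicts), against 6.65% in the rest of the genome. The 21 DMRs comprised 10 hyper-5hmC, 1 hypo-5hmC, 2 hyper-5mC and 7 hypo-5mC regions of d8 DZ+PGCLC, and 1 hyper-5mC region of N3+PGCLC. N3+PGCLC had no other DMR in the locus.

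**Figure D1:**
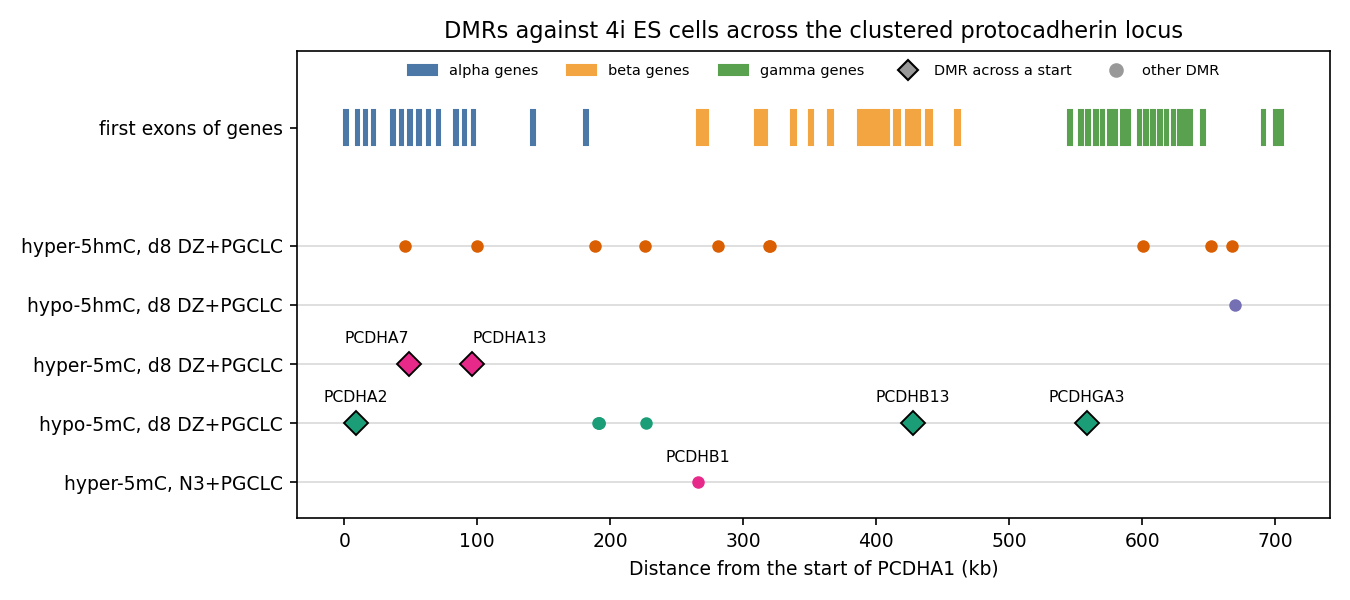
Positions of all 21 DMRs along the locus, in kb from the start of PCDHA1, with 1 row for each list that had any; marks of DMRs within a few kb of each other overlap. The first exons of the 53 genes are drawn above, and diamonds mark the 5 DMRs that cross a transcription start, all of them 5mC calls of d8 DZ+PGCLC.

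In d8 DZ+PGCLC, hyper-5hmC DMRs numbered 7.71 per 10000 CpGs of the locus, against 17.5 per 10000 CpGs of the rest of the genome. Per length the values were closer, with 13.7 per Mb in the locus and 16.7 per Mb outside it. Hypo-5mC DMRs numbered 5.4 per 10000 CpGs in the locus and 30.9 outside it, and 9.6 per Mb in the locus against 29.4 per Mb outside it. For hyper-5mC the locus had 1.54 per 10000 CpGs against 1.19 outside it, which was below the 2.01 of the 1 Mb on each side (5 DMRs) and the 2.07 of the zinc finger genes of chromosome 19. The 1 Mb on each side of the locus together held 33 hyper-5hmC DMRs and 45 of hypo-5mC in this stage, or 13.3 and 18.1 per 10000 CpGs. In the same order, the HOX clusters had 1.27 and 4.44 per 10000 CpGs, from 2 and 7 DMRs. The zinc finger genes of chromosome 19 had 11.9 and 10.6. Rates below those of the rest of the genome were thus not particular to the locus. In N3+PGCLC, the single hyper-5mC DMR came to 0.771 per 10000 CpGs of the locus, against 1.21 outside it.

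As shares of CpGs, hyper-5hmC DMRs of d8 DZ+PGCLC took in 0.293% of the locus and 0.917% of the rest of the genome. Hyper-5mC DMRs took in 0.656% of the CpGs of the locus against 0.226% outside it, and hypo-5mC DMRs 0.926% against 2.02%. The shares were unlike in tiles of unlike composition. Among CpGs in island-like tiles, 0.716% of those in the locus were in hyper-5mC DMRs, against 0.875% of those outside it, whereas for hypo-5mC the shares were 0.637% in the locus and 0.21% outside it. Among CpGs in other tiles, hyper-5mC took in 0.618% in the locus and 0.18% outside it, and hypo-5mC 1.11% in the locus and 2.15% outside it. This pattern of hypo-5mC was not particular to the locus. In island-like tiles its share was 0.546% in the HOX clusters and 0.952% in the zinc finger genes of chromosome 19. In other tiles it was 1.08% and 1.1%. Hyper-5hmC was absent from the 5027 island-like CpGs of the locus and nearly so outside it (0.0064%), and in other tiles it took in 0.479% of the CpGs of the locus against 0.982% outside it. The 5mC shares of the locus rest on 2 hyper-5mC and 7 hypo-5mC DMRs, so a single call moves them.

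**Figure D2:**
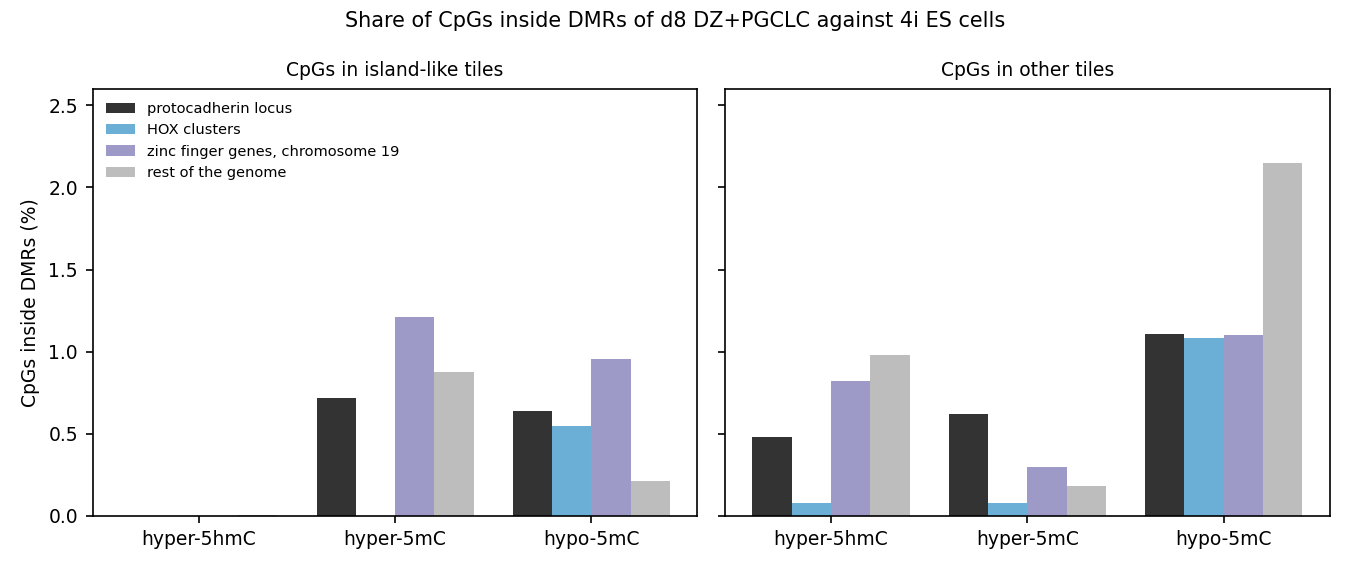
Share of CpGs (%) inside DMRs of 3 lists (hyper-5hmC, hyper-5mC and hypo-5mC), all d8 DZ+PGCLC against 4i ES cells, for CpGs in island-like tiles (left) and in other tiles (right). Bars give the protocadherin locus, the HOX clusters, the zinc finger genes of chromosome 19 and the rest of the genome. Hypo-5mC in island-like tiles was 0.637% in the protocadherin locus and 0.21% in the rest of the genome, and the order was the opposite in other tiles. The HOX clusters (0.546%) and the zinc finger genes (0.952%) were also above the rest of the genome in island-like tiles and below it in other tiles.

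At the transcription starts, 5 of the 53 genes (9.43%) had a DMR across the start itself. Of all protein-coding genes, 0.978% had a DMR of any list across the start. All 5 were 5mC calls of d8 DZ+PGCLC, and they went both ways. PCDHA7 and PCDHA13 had hyper-5mC DMRs (2 of 53 genes, against 0.27% of all genes). PCDHA2, PCDHB13 and PCDHGA3 had hypo-5mC DMRs (3 of 53 genes, against 0.589% of all genes). Another annotated gene also spanned the DMR midpoint at PCDHA2 (ENSG00000279726), PCDHA13 (ENSG00000278901) and PCDHB13 (ENSG00000280029). Counted by DMR, 2 of 2 hyper-5mC and 3 of 7 hypo-5mC DMRs of the locus crossed a start, against 1.49% and 0.129% of all DMRs in those lists. Starts are close together here, with 53 in 729 kb. The 5mC DMRs were also wide, with medians of 928 bases for hyper-5mC and 588 for hypo-5mC, against 454 and 354 in the whole lists. Neither was allowed for in this count.

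These first exons are unusually long, with a median of 2601 bases against 185 for all protein-coding genes. Among the 456 protein-coding genes with a first exon of at least 2 kb, which include all 53 protocadherins, 7 (1.54%) had a DMR across the start. Of the 403 of them that are not clustered protocadherins, 2 had one (0.496%), both hyper-5mC of d8 DZ+PGCLC, namely PPP1R2B and PAPOLB, which are named for this count after it was seen. By comparison, 0 of 39 HOX genes and 2 of 254 zinc finger genes of chromosome 19 (0.787%), the other tandem arrays set beside the locus, had a start inside a DMR.

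PCDHA7 carried the largest DMR of the locus. The hyper-5mC region at chr5:140833852-140835353 was 1502 bases long with 63 CpGs, against a median of 454 bases and 10 CpGs for all hyper-5mC DMRs of d8 DZ+PGCLC. It began 417 bases before the start, where it had 7 CpGs, and ran through the 5′ untranslated stretch into the coding sequence, where 54 of its CpGs lay. It covered 43.9% of the first exon and 31.6% of that exon's 177 CpGs. The starts of PCDHA6, 6.31 kb before, and PCDHA8, 6.92 kb after, were not in a DMR.

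Part of that DMR is not unique in the genome sequence. From base 528 after the start to its end at base 1084, it was made of stretches of 150 bases with an exact copy in PCDHA9, a paralog. This stretch held 25 of the 62 complete CpGs. Counted in stretches of 50 bases, 41.4% had a copy in at least 1 of the other alpha genes, and these held 46 of the 62 CpGs. The promoter and the CpGs before the start were outside these repeats. The part of read placement was not tested for this call, nor for the calls with repeated stretches described below.

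PCDHA13, the last of the alpha genes before the C-type pair, had a narrower hyper-5mC DMR of 354 bases and 22 CpGs (chr5:140882060-140882413). It ran from 64 bases before the start to 289 after it, with 8 CpGs before and 14 after, of which 10 were coding. It held no stretch of 50 bases repeated in the locus.

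PCDHA2, near the opposite end of the alpha subcluster, had a hypo-5mC DMR of 1074 bases and 42 CpGs (chr5:140794488-140795561). It ran from 364 bases before the start to 709 after it and took in 28.4% of the first exon, with 4 CpGs before the start and 38 after it. Its repeats were short: 8.1% of its 50-base stretches and none of 150 bases were copied elsewhere in the locus. The copied 50-base stretches held 15 of its 42 CpGs. Hence the alpha subcluster held calls of both directions, with the starts of the other 12 alpha genes in no DMR.

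PCDHB13 had a hypo-5mC DMR of 588 bases and 14 CpGs (chr5:141213549-141214136), the smallest number of CpGs of the 5. It lay mainly upstream, with 9 CpGs before the start and 5 after it, of which 1 was coding. Between bases -46 and 127 it matched PCDHB8 exactly in stretches of 150 bases, which held 6 of its 14 CpGs. Counted in stretches of 50 bases, 29.1% had a copy in PCDHB8, and these held 8 of the 14 CpGs. PCDHGA3 had a hypo-5mC DMR of 981 bases and 43 CpGs (chr5:141343658-141344638), with 4 CpGs before the start and 39 after it, of which 30 were coding. It covered 30.8% of the first exon, and 1.29% of its 50-base stretches, holding 7 of its 43 CpGs, recurred in PCDHGA4 or PCDHGA5. Thus the 3 hypo-5mC DMRs lay 1 in each subcluster, and the starts next to them, 5.07 to 9.42 kb away, were not in a DMR.

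**Figure D3:**
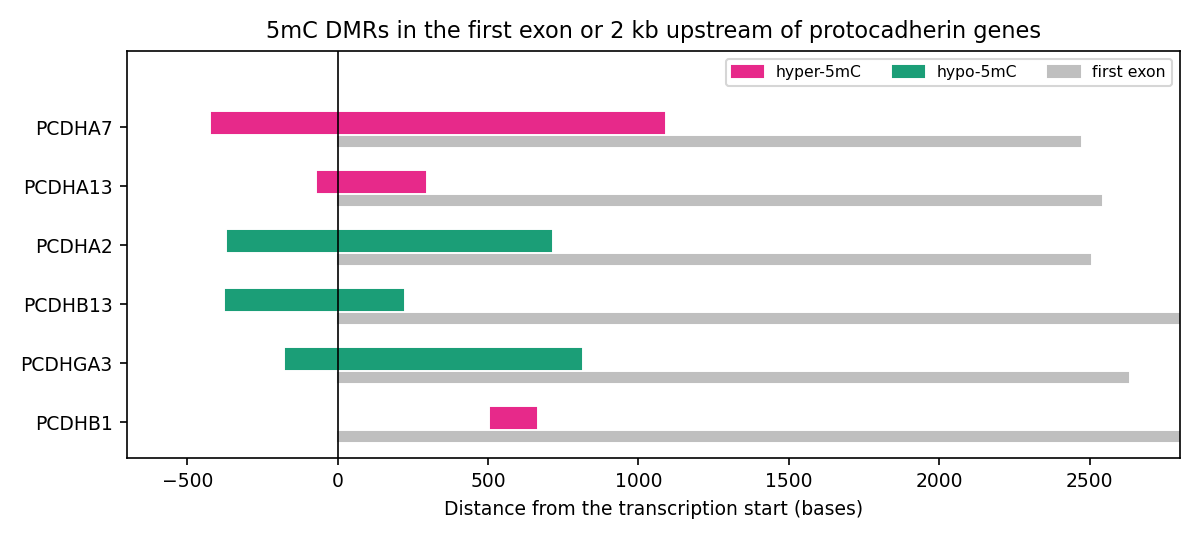
Extent of the 5mC DMRs in the first exon or the 2 kb upstream of the 6 genes that had one, in bases from the transcription start, with the first exon in grey (PCDHB13 and PCDHB1 continue beyond the axis). The upper 5 cross the start in d8 DZ+PGCLC, and PCDHB1 is a hyper-5mC DMR of N3+PGCLC.

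By the wider window of the own first exon and 2 kb upstream of it, 7 of the 53 genes (13.2%) had a DMR midpoint, against 9.92% of all protein-coding genes and 21.5% of those with a first exon of at least 2 kb. By list, these were 2 genes with hyper-5mC (0.889% of all genes), 3 with hypo-5mC (6.06% of all genes) and 1 with hyper-5hmC (4.62% of all genes) of d8 DZ+PGCLC, and 1 with hyper-5mC of N3+PGCLC (0.639% of all genes). Genes with a first exon of at least 2 kb had shares of 2.19% (hyper-5mC), 14.9% (hypo-5mC) and 10.3% (hyper-5hmC) in d8 DZ+PGCLC. For hyper-5mC of N3+PGCLC their share was 1.1%. For all lists together the locus was thus between the backgrounds. By list, its share was below both for hypo-5mC (5.66%) and hyper-5hmC (1.89%). It was above both for hyper-5mC of d8 DZ+PGCLC (3.77%) and of N3+PGCLC (1.89%), on 2 genes and 1 gene. The genes were 3 of 15 alpha, 2 of 16 beta and 2 of 22 gamma genes, and none of the 2 alpha and 3 gamma C-type genes. No gene had more than 1 such DMR, and no gene had one in both d8 DZ+PGCLC and N3+PGCLC.

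PCDHGB4 was the gene with hyper-5hmC in this window. In N3+PGCLC the DMR of PCDHB1, the first beta gene and the one with the fewest CpGs per kb, was hyper-5mC, 149 bases long with 8 CpGs (chr5:141051883-141052031). It lay from 509 to 657 bases after the start in the coding sequence, which PCDHB1-AS1 also overlaps. This DMR is short enough to print whole (hg38, plus strand, CpGs in capitals), and its eighth CpG ends on the first base after it.
PCDHB1: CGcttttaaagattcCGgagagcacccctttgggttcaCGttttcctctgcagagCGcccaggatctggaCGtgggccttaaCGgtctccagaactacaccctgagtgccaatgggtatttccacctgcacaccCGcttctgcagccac

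The DMR of PCDHB1 had 56.4% G and C. The RefSeq promoter of PCDHB1 held CGCT, and the DMR does not touch it.

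The remaining 46 genes had no DMR midpoint in this window in any list. They were PCDHA1, PCDHA3 to PCDHA6, PCDHA8 to PCDHA12, PCDHAC1 and PCDHAC2 of the alpha subcluster (12 genes), PCDHB2 to PCDHB12 and PCDHB14 to PCDHB16 of the beta subcluster (14 genes), and all gamma genes other than PCDHGA3 and PCDHGB4 (20 genes).

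The genes crossed by DMRs did not share a CpG content. Alpha genes other than the C-type had 166 to 197 CpGs in the first exon (median 179), at 0.866 to 0.944 of the number that base content predicts. Beta genes had 106 to 167 (median 140) and gamma genes other than the C-type 81 to 174 (median 133). Per kb of first exon, PCDHA13 had 76, PCDHA7 71.7, PCDHA2 70.4, PCDHGA3 53.3 and PCDHB13 28.5. PCDHA9 (78.5) and PCDHA6 (75.6) were about as dense as PCDHA13 and had no DMR across the start. PCDHB13 was the least dense beta gene after PCDHB1 (13.3).

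**Figure D4:**
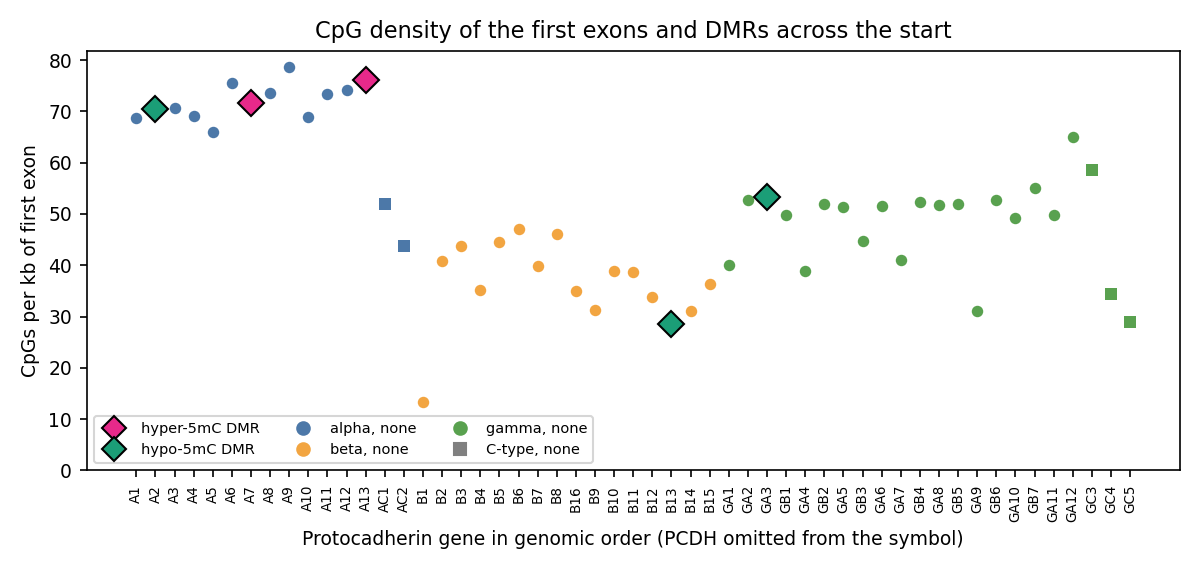
CpGs per kb of first exon for the 53 genes in genomic order. Diamonds mark the 5 genes with a DMR across the start in d8 DZ+PGCLC (hyper-5mC at PCDHA7 and PCDHA13, hypo-5mC at PCDHA2, PCDHB13 and PCDHGA3), which lie from 28.5 to 76 CpGs per kb, and squares mark the C-type genes.

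The 5hmC DMRs lay away from the starts. Of the 10 hyper-5hmC DMRs of d8 DZ+PGCLC, 5 lay in introns shared by several genes, 3 between beta genes, 1 in the last exon shared by the alpha genes and 1 upstream of PCDHGB4. They were small, with 2 to 8 CpGs and a median of 184 bases, against 269 bases for all hyper-5hmC DMRs. Among the alpha genes, a hyper-5hmC DMR with 3 CpGs (chr5:140831748-140831935) ended 1916 bases before the hyper-5mC DMR of PCDHA7. Another, with 4 CpGs (chr5:140885980-140886340), began 3566 bases after that of PCDHA13. Neither overlapped the hyper-5mC DMR.

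The widest hyper-5hmC DMR was in the intron after the first exon of PCDHAC2, the C-type gene at the end of the alpha variable exons. It had 446 bases and 8 CpGs (chr5:140974614-140975059) and was followed, from 1256 bases on, by 3 hypo-5mC DMRs. These were at chr5:140976316-140976788 with 6 CpGs, chr5:140977306-140977430 with 4 and chr5:140977965-140977978 with 2. At the shared last exon of the alpha genes, a hyper-5hmC DMR of 419 bases and 6 CpGs (chr5:141012130-141012548) and a hypo-5mC DMR of 949 bases and 9 CpGs (chr5:141012130-141013078) began at the same base. This was the only place in the locus where DMRs of both modifications overlapped. Both of these DMRs ran past the end of the alpha genes at chr5:141012347. The midpoint of the hypo-5mC DMR lay between the alpha and beta genes.

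Among the beta genes, hyper-5hmC DMRs of 3, 2 and 3 CpGs were at chr5:141067130-141067309, chr5:141105362-141105524 and chr5:141105862-141105977. The first of them lay within PCDHB1-AS1 and the others within ENSG00000272154. In the gamma subcluster, the intron between PCDHGA12 and the C-type genes held hyper-5hmC DMRs of 5 CpGs (chr5:141437659-141438037) and 2 CpGs (chr5:141453204-141453217). The same intron held the only hypo-5hmC DMR of the locus, of 18 bases and 3 CpGs (chr5:141455920-141455937). The rate of hypo-5hmC, 0.771 per 10000 CpGs against 0.25 in the rest of the genome, rests on that single call.

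In the rest of the genome such overlap was frequent. Of the 10 hyper-5hmC DMRs of the locus, 1 overlapped hypo-5mC of the same stage (10%, exact Clopper-Pearson 95% interval 0.253 to 44.5%, for counting error only), against 66% of those in the rest of the genome. Of its 7 hypo-5mC DMRs, 1 overlapped hyper-5hmC (14.3%, interval 0.361 to 57.9%), against 37.4% outside it. Both intervals treat DMRs as independent, which those of 1 locus are not, and neither difference from the rest of the genome was tested. Within 1 Mb on each side, the overlap was 54.5% of 33 hyper-5hmC DMRs and 40% of 45 hypo-5mC DMRs. In the zinc finger genes of chromosome 19 it was 48.6% of 138 hyper-5hmC DMRs and 55.3% of 123 hypo-5mC DMRs, and in the HOX clusters it was 1 of 2 hyper-5hmC DMRs and 1 of 7 hypo-5mC DMRs.

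DMRT1, whose transgene was induced in d8 DZ+PGCLC, is a DNA-binding factor with a known motif. With up to 2 mismatches in the 500 bases around the midpoint, 3 of 10 hyper-5hmC DMRs of the locus had a match (26.4% of all hyper-5hmC DMRs) and 1 of 7 hypo-5mC DMRs had one (25% of all). None of the 2 hyper-5mC DMRs had a match (4.18% of all). With 10, 7 and 2 DMRs, a single call moves these shares widely, so they show neither likeness to the lists nor a difference from them.

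By whole gene bodies, which in the alpha and gamma subclusters are nested, so that 1 DMR counts for many genes, 34 of 53 genes in d8 DZ+PGCLC had hyper-5hmC (45.6% of all genes) and 19 a hypo-5mC DMR (50% of all genes). For hyper-5mC the count was 13 (6.4% of all genes) and for hypo-5hmC 19 (1.85% of all genes), which all come from the single intronic call. In N3+PGCLC, 1 gene had a hyper-5mC DMR (8.94% of all genes).

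A list of 28 genes, drawn up here as possible regulators of the clustered protocadherins, was counted by DMRs within the gene or 2 kb upstream of it. Whether each of them acts on protocadherin promoters was not tested. In d8 DZ+PGCLC, 21 of the 28 had hyper-5hmC (75%, against 45.6% of all genes), 25 had hypo-5mC (89.3%, against 50%) and 6 had hyper-5mC (6.4% of all genes). Many of these genes are long, and length was not allowed for. CTCF, which binds the promoters and enhancers, had 5 hyper-5hmC and 7 hypo-5mC DMRs there, and STAG1, a cohesin subunit, had 19 and 33. SMCHD1, which represses the clusters, had 6 and 17. DNMT3B, the methyltransferase of these promoters, had 2 hypo-5mC DMRs in the day 8 cells and 2 in N3+PGCLC, where it was the only gene of the list with one (3.2% of all genes). TET1 and TET2, which oxidise 5mC, had 15 and 10 hypo-5mC DMRs in the day 8 cells, and 11 and 0 hyper-5hmC DMRs. In N3+PGCLC, 4 of the list had a hyper-5mC DMR (8.94% of all genes), namely CTCF with 2, STAG1 with 1, EHMT1 with 3 and ADNP with 1, and ZNF143 had a hypo-5hmC DMR (3.8% of all genes). None of the 28 starts lay in a DMR, against 0.978% of all genes.

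The 11 non-clustered protocadherins, adhesion genes with promoters of their own elsewhere in the genome, were set beside the clustered ones. Of these, 9 had hyper-5hmC and 9 had hypo-5mC of the day 8 cells in the body or 2 kb upstream (81.8% each, against 45.6% and 50% of all genes), with 10 and 55 in PCDH9 and 10 and 28 in PCDH7. These 2 genes are 928 and 426 kb long, and length was not allowed for here either. PCDH20 was the only one with hyper-5mC, in both d8 DZ+PGCLC (6.4% of all genes) and N3+PGCLC (8.94% of all genes). PCDH1 and PCDH8, of 26.2 and 5.75 kb, had no DMR of any list. None of the 11 starts lay in a DMR, against 0.978% of all genes, where the clustered genes had 5 of 53. A DMR midpoint in the own first exon or 2 kb upstream was found in 3 of the 11 (27.3%, against 9.92% of all genes), where the clustered genes had 7 of 53 (13.2%). Neither difference was tested.

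The genes around the locus are given for position only. Within 200 kb, CD14, NDUFA2, TMCO6, IK, WDR55, DND1, HARS1, HARS2 and ZMAT2 lie before it, and DIAPH1, HDAC3, RELL2, FCHSD1 and ARAP3 after it. TAF7 and SLC25A2 lie between the beta and gamma subclusters, and ENSG00000279983, a protein-coding gene listed by its identifier, spans from PCDHB14 to PCDHB15.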

How the data were processed

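Genomic DNA of d8 DZ+PGCLC, N3+PGCLC and 4i ES cells was converted separately for CAPS (5hmC) and TAPSβ (5mC) and sequenced. According to the methods, read trimming used Trim Galore and duplicate removal SAMtools rmdup, reads were aligned to hg38, and asTair gave each CpG's level as T over C plus T. The authors ran DMRfinder on the 2 replicates of a PGCLC stage and of 4i ES cells, joining CpGs under 300 bases apart and requiring a mean difference of 0.2 for 5mC or 0.05 for 5hmC, so smaller differences are not listed. Tool versions are not given in the sources used here. The deposited tables hold only position and direction.

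DMRs were assigned by their midpoint, and a CpG counted as inside when at least 1 of its bases was. Each gene's own window was the first exon of its canonical GENCODE release 44 transcript plus 2 kb upstream. Counting was tested on simulated intervals. Every gene with a DMR in its own window was named. Members and lists were chosen with earlier results of these data known, and the counts of crossed starts and repeated stretches were added after the data had been seen. Alternatives were other windows, overlap in place of midpoint, merged DMRs and a minimum of 5 CpGs. Python 3.11.15, numpy 2.4.6, scipy 1.17.1 and pysam 0.24.0 were used.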

Additional observations from a re-analysis of the deposited data

How the results depend on the processing

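Of 130 values recomputed under alternatives, 118 stayed within 1.5 times the value reported, or within its interval for a share. These 118 include values of 0 that stayed 0, which a stricter rule could not have changed. Counts and shares cannot change sign, so none of the 130 could reverse. The other 12 were as follows. With at least 5 CpGs, hyper-5hmC DMRs of d8 DZ+PGCLC in the locus fell to 3 and their share of its CpGs to 0.147%, and both hypo-5hmC values and the genes with hyper-5hmC in their own window to 0. With that minimum, listed possible regulators with hyper-5mC in d8 DZ+PGCLC were 3 and with hypo-5mC in N3+PGCLC 0. Non-clustered protocadherins of N3+PGCLC with hyper-5hmC, hypo-5hmC or hypo-5mC were then also 0. Genes with hyper-5hmC in their own window were 0 with 1 kb upstream and 2 with 5 kb upstream. A window of 2 kb on each side of the start, chosen after seeing the data, moved no count beyond 1.5 times.

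No paired analysis was possible because the tables hold regions called from both replicates together, with no value per library. Leaving out 1 replicate was not possible for the same reason. Depth at each DMR is unknown.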
